A study of Mus musculus with 12 samples.

Results

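Glycolysis and hypoxia response genes were followed in healing skin wounds of diabetic mice. The list holds 33 genes chosen by their known role: glucose and lactate transporters, the enzymes of glycolysis and their isoenzymes, regulators of pyruvate use, the hypoxia-inducible factors with their oxygen sensors, and established hypoxia targets. All 33 were found among the 54232 Ensembl genes counted. Each had more than the required 15 counts, with totals from 691 (Ankrd37) to 363422 (Aldoa) over 12 libraries, and each passed the filter on low counts, so no member was lost. Every wound came from a male C57BLKS/J mouse labelled Lepr (db/db) and 12.5 weeks old, a strain that lacks working leptin receptor signalling and becomes obese and diabetic. A full-thickness punch of 6 mm was made in the back skin, and the wound tissue was taken on day 10. The controls, called TD, were covered by a Tegaderm film dressing alone (n = 5). The Strain group wore a patch labelled with a strain of about 30% (n = 4). The No Strain group wore a patch without that strain (n = 3). Whether the strain stretched or contracted the wound is not stated here. There was no unwounded skin and no non-diabetic mouse among the groups used. The labels do not say whether wounds came from separate animals, so p-values measure the spread between these samples.

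Glycolysis splits glucose into pyruvate in the cytosol and yields ATP without oxygen. Hexokinases trap glucose in the cell, phosphofructokinase commits it to the pathway, and lactate dehydrogenase turns pyruvate into lactate so that the pathway can run on. When oxygen is short, prolyl hydroxylases of the EGLN family stop marking the hypoxia-inducible factor alpha subunits for destruction, and the stabilised factors raise transcription of glucose transporters, glycolytic enzymes and survival genes. In wounds, keratinocytes, fibroblasts and incoming leukocytes all draw on glycolysis, and neutrophils depend on it heavily.

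The 12 libraries held 20354677 to 25059371 counts. Skin markers were present throughout: the summed level of 8 basal keratinocyte markers was 4537 to 11126 CPM (counts scaled to a shared library total) and that of 7 fibroblast markers 42057 to 73154 CPM. Markers of other tissues differed between the groups. A list of 18 skeletal muscle markers summed to 7757 to 19171 CPM in TD, 5448 to 11615 CPM in No Strain and 3675 to 7020.3 CPM in Strain. The 11 neutrophil markers summed to 532 to 1713, 2383 to 5352 and 1015 to 8826 CPM in the same order, and the 11 adipocyte markers to 1263 to 2928, 681 to 972 and 895 to 1359 CPM. No marker of any list was at 0 in all libraries. The titles number the TD samples 1 to 6 and the patch samples 7 to 15. Should they record an order of handling, that order and the patch cannot be told apart.

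Under the patch without strain, 7 of the 33 genes differed from TD at an edgeR quasi-likelihood adjusted p under 0.05. Hif1a, Epas1, Slc2a3, Hk1, Pgam1 and Pkm rose, and Pfkm, the muscle-type phosphofructokinase, fell. Under the strain patch 6 passed: Hif1a, Hk1, Eno1 and Pkm rose, and Pfkm and Aldoa fell. Between Strain and No Strain none passed. Of all 18618 genes tested, 17.8% passed for No Strain against TD (9.35% higher, 8.4% lower) and 12.6% for Strain against TD (6.2% higher, 6.41% lower). The 33 genes thus passed at 21.2% and 18.2%, near the share of all genes. With library totals alone as scaling, 1257 of all genes were higher and 2046 lower for No Strain against TD, beside 1741 and 1564 with TMM scaling. At an unadjusted p under 0.05 there were 17 of the 33 for No Strain (33.5% of all genes) and 13 for Strain (29.5% of all genes). The median log2 change of the 33 was 0.29 for No Strain against TD and 0.26 for Strain against TD, beside medians of 0.00 and 0.02 over all genes. The libraries did not overlap for 11 members in the first comparison (10 higher, 1 lower) and for 7 in the second (5 higher, 2 lower), where 26.7% and 14.6% of all genes showed no overlap. Both comparisons use the same 5 TD libraries. The count for No Strain was 11 without TD replicate 1, where 14.3% of all genes passed, and 4 with the mean log2 CPM of the skeletal muscle markers as a covariate (Hif1a, Epas1 and Pkm higher, Pfkm lower), where 5.72% of all genes passed. The count for Strain was 3 without TD replicate 2 (7.69% of all genes) and 3 without Strain replicate 2 (4.75% of all genes). It was 10 with DESeq2 (16.1% of all genes) and 3 with the letter of the sample title as a covariate (4.29% of all genes). With the muscle covariate it was 0, and 1 of all 18618 genes passed for Strain. Titles carry an L or an R whose meaning the labels do not state, and the letters are unevenly spread: 1 L and 4 R in TD, 3 L and 1 R in Strain, and 2 L and 1 R in No Strain.

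**Figure D1:**
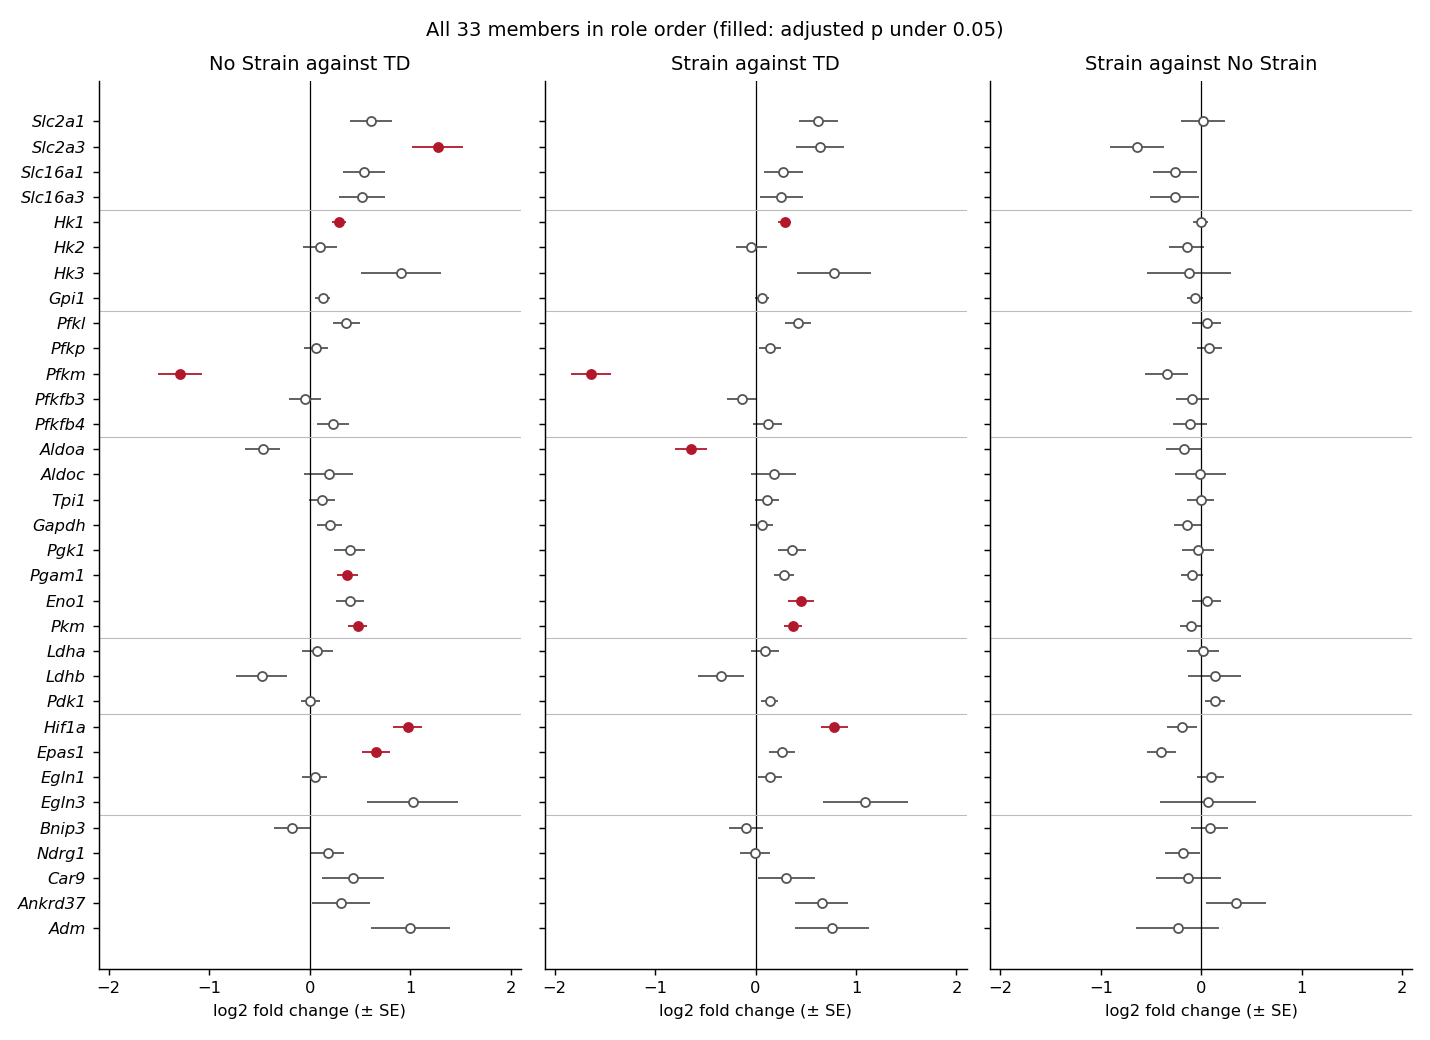
Log2 fold change of each of the 33 genes (x axis, ± standard error) in the 3 comparisons, with genes on the y axis in order of role. Filled red points had an edgeR adjusted p under 0.05: 7 for No Strain against TD, 6 for Strain against TD and 0 for Strain against No Strain.

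Of the 4 genes for hypoxia factors and oxygen sensors, 2 passed under No Strain and 1 under Strain, all of them higher. Of all genes, 9.35% were higher under No Strain and 6.2% under Strain, and 4 genes are few for such a comparison. Hif1a (ENSMUSG00000021109, chr12:73901375-73947530; this and later gene positions are from GENCODE M21 on GRCm38) encodes the HIF-1 alpha subunit, whose protein is held low by oxygen. It was at 227, 211, 168, 219 and 186 CPM in the TD libraries, 368, 361 and 466 CPM in No Strain and 385, 415, 284 and 308 CPM in Strain. Every patch library lay above every TD library. The means were 202 ± 24.3 CPM (SD, n = 5), 398 ± 58.6 CPM (SD, n = 3) and 348 ± 62.1 CPM (SD, n = 4). The log2 change against TD was 0.98 with a standard error of 0.143 in No Strain (edgeR adjusted p = 0.00272) and 0.78 with a standard error of 0.133 in Strain (edgeR adjusted p = 0.00768). Both calls held in each of the 12 fits that left out 1 library. With the muscle covariate the No Strain change was 0.95 (edgeR adjusted p = 0.0238), and the Strain change was 0.73 but no longer passed (edgeR adjusted p = 0.461). Neutrophil markers, like Hif1a, stood higher in the patch groups than in TD. Without S100a8 and S100a9, which keratinocytes also express, the other 9 summed to 196 to 250.02 CPM in TD, 459.5 to 1022 CPM in No Strain and 395 to 624 CPM in Strain, so every patch library lay above every TD library. Within groups the order differed. TD replicate 1 had the highest Hif1a of TD but the lowest sum, 196 CPM. Strain replicate 4 had the highest sum of Strain, 624 CPM, with Hif1a at 308 CPM. No Strain replicate 3 was highest of its group in both. Of the 9, all were called higher in No Strain and 8 in Strain, and their part in the Hif1a values was not tested.

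Epas1 (ENSMUSG00000024140, chr17:86753700-86833410) encodes HIF-2 alpha, a relative of HIF-1 alpha that is abundant in blood vessel endothelium. It was at 164, 139, 166, 137 and 137 CPM in TD, 206, 191 and 308 CPM in No Strain and 172, 179, 171 and 192 CPM in Strain. No patch library overlapped with TD, and No Strain replicate 3 stood highest. The No Strain change was 0.66 (standard error 0.138, edgeR adjusted p = 0.00988), and the Strain change of 0.26 did not pass (standard error 0.129, edgeR adjusted p = 0.197). Without No Strain replicate 3 the former was 0.42 and still passed (edgeR adjusted p = 0.0305). Of 10 endothelial markers, 6 were called higher in each patch group, and their summed level was 514 to 641 CPM in TD, 709 to 823 CPM in No Strain and 641 to 919 CPM in Strain. Their part in the Epas1 values was not tested. As in any whole-tissue sample, more cells of a type and more RNA per cell cannot be told apart.

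The prolyl hydroxylase genes behaved unevenly. Egln1, the main oxygen sensor in most cells, ranged over 83.2 to 115 CPM in TD, 88.1 to 113 CPM in No Strain and 91.0 to 123 CPM in Strain, with log2 changes of 0.05 and 0.14 that did not pass. Egln3, the sensor whose gene is itself a hypoxia target, spread widely. Its range was 47.7 to 84.3 CPM in TD, 92.3 to 211 CPM in No Strain and 51.3 to 268 CPM in Strain. Its changes of 1.02 and 1.09 were among the largest in the list but carried standard errors of 0.449 and 0.420 (edgeR adjusted p = 0.136 and 0.108).

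None of the 5 hypoxia targets passed in either comparison with TD, where 17.8% and 12.6% of all genes passed. Adm, encoding the vasodilator peptide adrenomedullin, had log2 changes of 1.00 (edgeR adjusted p = 0.1) and 0.76 (edgeR adjusted p = 0.191), with levels of 7.89 to 16.2 CPM in TD and 11.1 to 32.2 CPM in No Strain. Car9, a cell-surface carbonic anhydrase much used as a hypoxia marker, was low everywhere, at 2.22 to 3.51 CPM in TD, 1.84 to 4.86 CPM in No Strain and 2.30 to 4.47 CPM in Strain. Ankrd37 was as scarce, at 1.12 to 2.80, 1.86 to 3.65 and 2.83 to 3.54 CPM, so that Strain did not overlap with TD, with a change of 0.66 (edgeR adjusted p = 0.119). The mitophagy receptor gene Bnip3 had changes of -0.18 (95% interval -0.57 to 0.22) and -0.10 (95% interval -0.46 to 0.27). Ndrg1, a stress-responsive differentiation gene, had 0.18 (95% interval -0.18 to 0.54) and -0.00 (95% interval -0.34 to 0.33). The intervals of Bnip3 and Ndrg1 include changes of either sign.

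**Figure D2:**
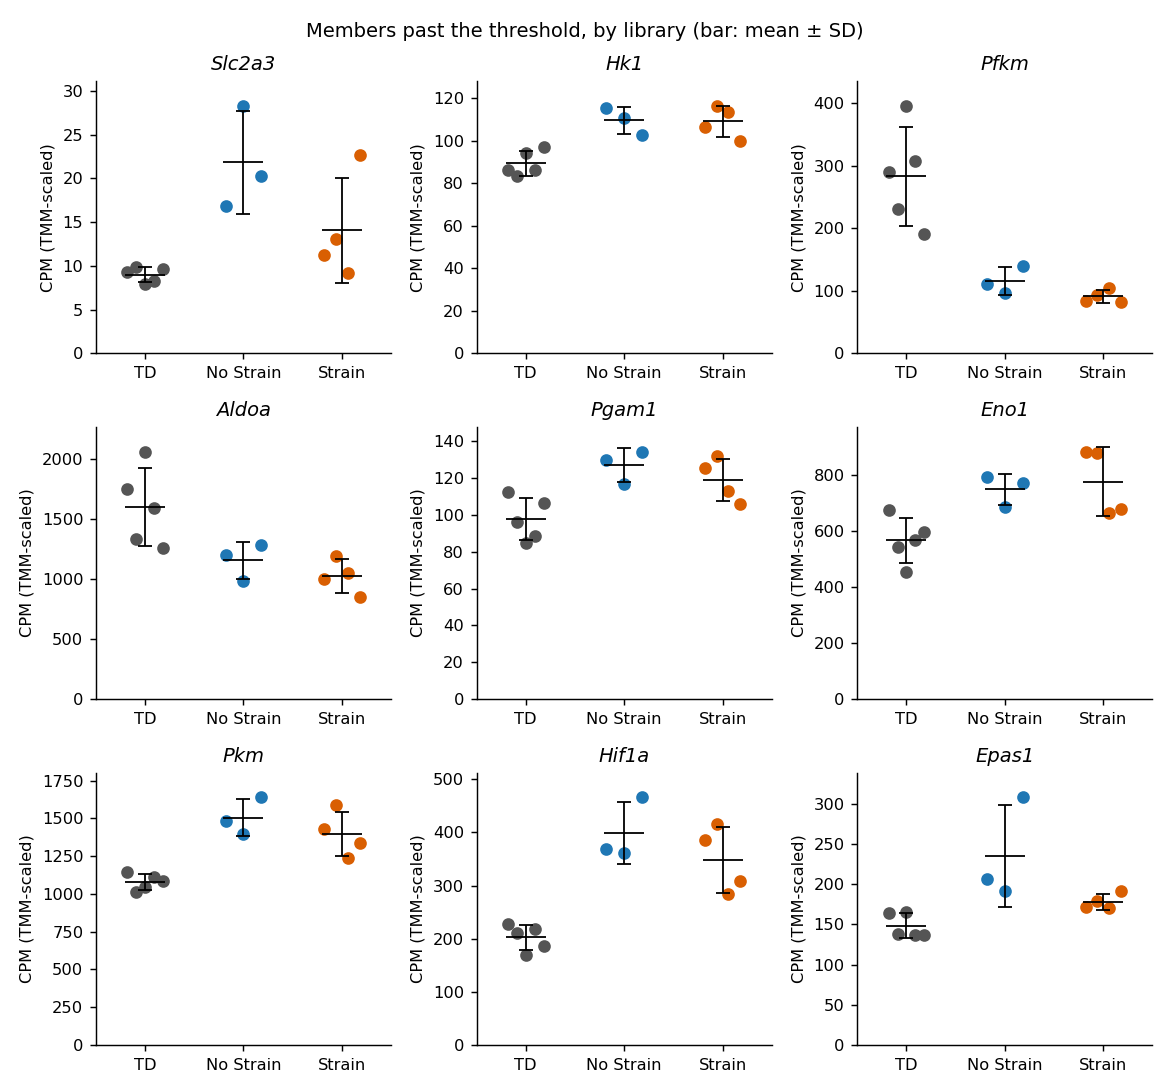
CPM on the y axis for each library (points) of the TD, No Strain and Strain groups, in the 9 genes that passed in at least 1 comparison with TD. Horizontal bars are group means and error bars 1 SD; Hif1a, Epas1, Hk1 and Pkm are higher and Pfkm lower in every patch library than in every TD library.

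The hypoxia-inducible factors bind a short core, ACGTG or GCGTG, and the promoters of the members were searched for it on both strands. Windows of 300 bases, from 250 before to 50 after each start in the RefSeq table for GRCm38.p6, were given for 30 of the 33 genes (not for Slc2a3, Epas1 and Ndrg1). At least 1 match stood in 28 of these 30 genes (93.3%), against 46.7% of the 27025 genes in the table. ACGTG alone was found in 21 (70%), against 21.8% of all genes. The list was chosen to include established hypoxia targets, so a higher share may come from that choice and is not a result about these wounds. A gene with more listed starts also had more windows in which to match. The median GC content was 61.3% in the members' windows and 52.7% in all windows, so base composition differed as well. Matches stood in 5 of 5 genes that rose, in 2 of 2 that fell and in 21 of 23 that did not pass. The 6 sequences of 250 bases upstream of the most upstream listed start are shown so that the windows of genes that rose (Hif1a, Pgam1, Eno1), fell (Pfkm) and did not pass (Ldha, Bnip3) can be compared. They are written 5′ to 3′ on the strand of the gene, with matches to either motif on either strand in capitals. CACGTG reads as ACGTG on both strands and counts as 2 matches.
Hif1a, chr12:73907617-73907866, plus strand: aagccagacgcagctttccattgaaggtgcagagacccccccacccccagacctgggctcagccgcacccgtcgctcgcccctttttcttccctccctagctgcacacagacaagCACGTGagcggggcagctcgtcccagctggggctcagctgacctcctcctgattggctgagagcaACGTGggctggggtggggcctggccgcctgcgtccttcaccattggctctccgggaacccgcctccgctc
Pgam1, chr19:41911621-41911870, plus strand: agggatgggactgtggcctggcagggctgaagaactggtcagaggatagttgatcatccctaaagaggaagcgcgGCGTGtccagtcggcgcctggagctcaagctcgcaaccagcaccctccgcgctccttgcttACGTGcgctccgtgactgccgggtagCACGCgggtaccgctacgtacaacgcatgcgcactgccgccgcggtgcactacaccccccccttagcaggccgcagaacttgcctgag
Eno1, chr4:150236458-150236707, plus strand: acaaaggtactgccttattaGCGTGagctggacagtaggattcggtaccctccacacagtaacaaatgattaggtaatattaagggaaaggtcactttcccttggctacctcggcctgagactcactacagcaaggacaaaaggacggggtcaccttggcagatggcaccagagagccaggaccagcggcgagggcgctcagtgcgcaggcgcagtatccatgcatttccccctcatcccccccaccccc
Pfkm, chr15:98092339-98092588, plus strand: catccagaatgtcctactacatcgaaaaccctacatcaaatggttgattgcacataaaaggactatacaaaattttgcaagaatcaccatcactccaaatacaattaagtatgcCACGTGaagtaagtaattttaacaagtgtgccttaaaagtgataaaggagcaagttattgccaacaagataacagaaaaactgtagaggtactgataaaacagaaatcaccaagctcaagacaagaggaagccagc
Ldha, chr7:46845554-46845803, plus strand: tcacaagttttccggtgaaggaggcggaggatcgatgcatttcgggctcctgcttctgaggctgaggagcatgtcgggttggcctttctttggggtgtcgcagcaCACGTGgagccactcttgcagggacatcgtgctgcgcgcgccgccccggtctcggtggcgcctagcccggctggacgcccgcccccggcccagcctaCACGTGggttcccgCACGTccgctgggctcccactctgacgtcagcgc
Bnip3, chr7:138909507-138909756, minus strand: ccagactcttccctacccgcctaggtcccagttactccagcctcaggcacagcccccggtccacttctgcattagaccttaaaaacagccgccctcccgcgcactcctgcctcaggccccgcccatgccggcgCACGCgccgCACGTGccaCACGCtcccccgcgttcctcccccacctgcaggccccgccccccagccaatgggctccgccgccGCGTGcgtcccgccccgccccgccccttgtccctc
Ldha and Bnip3 each hold 5 matches in the printed bases, more than Hif1a and Pgam1 with 3 each, Pfkm with 2 and Eno1 with 1. Pfkm has 4 listed starts, Eno1 3 and Ldha 2, and which start these wounds used was not measured.

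Sugar enters through the transporters, where 1 of 4 genes passed under No Strain and none under Strain. Of all genes, 17.8% and 12.6% passed, and 4 genes are few for such a comparison. Slc2a3 (ENSMUSG00000003153, chr6:122727809-122801640) encodes GLUT3, a high-affinity glucose transporter of neurons and leukocytes. It was at 9.26, 9.90, 7.93, 8.32 and 9.65 CPM in TD, 16.9, 28.3 and 20.3 CPM in No Strain and 11.2, 13.1, 9.19 and 22.7 CPM in Strain. No Strain lay wholly above TD, and Strain replicate 3 fell inside the TD range while Strain replicate 4 lay among the No Strain values. The change was 1.28 in No Strain (standard error 0.254, edgeR adjusted p = 0.00844), a 2.42-fold rise, and 0.64 in Strain (standard error 0.239, edgeR adjusted p = 0.1). With the muscle covariate the No Strain change was 0.97 and did not pass (edgeR adjusted p = 0.0909). Of 11 neutrophil markers, 9 were called higher in No Strain and 10 in Strain. Their part in the Slc2a3 values was not tested.

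Slc2a1 encodes GLUT1, the widespread glucose transporter that is strong in proliferating keratinocytes. It was at 99.5 to 147 CPM in TD, 157 to 225 CPM in No Strain and 132 to 258 CPM in Strain. Its log2 changes of 0.61 (95% interval 0.15 to 1.07) and 0.62 (95% interval 0.20 to 1.05) narrowly missed the threshold (edgeR adjusted p = 0.0652 and 0.0562). The lactate carriers Slc16a1 (MCT1) and Slc16a3 (MCT4, the exporter of glycolytic cells) had changes of 0.54 and 0.52 in No Strain and 0.28 and 0.26 in Strain, none of which passed. All 8 transporter changes against TD were above 0.

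At the hexokinase step Hk1 passed in both patch groups. Hk1 (ENSMUSG00000037012, chr10:62268855-62379908) encodes the broadly expressed enzyme that sits on the mitochondrial surface. Its level was 86.3, 83.4, 94.1, 86.0 and 96.9 CPM in TD, 115, 111 and 103 CPM in No Strain and 107, 116, 114 and 100.03 CPM in Strain, with every patch library above every TD library. The rise was small, 0.29 in No Strain (standard error 0.0715, edgeR adjusted p = 0.0183) and 0.29 in Strain (standard error 0.0660, edgeR adjusted p = 0.0195). The No Strain call was lost without No Strain replicate 1 (edgeR adjusted p = 0.0795), without No Strain replicate 2 (0.0542) and with scaling by library totals alone (0.0582). The Strain call was lost without TD replicate 2 (0.0507), TD replicate 4 (0.0531) or Strain replicate 2 (0.0707).

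Hk2, the insulin- and hypoxia-responsive hexokinase, had changes of 0.11 (95% interval -0.26 to 0.47) and -0.04 (95% interval -0.38 to 0.30). Hk3, the hexokinase of myeloid cells, was at 25.8 to 73.9 CPM in TD, 97.4 to 114 CPM in No Strain and 35.0 to 156 CPM in Strain. No Strain did not overlap with TD, whereas Strain replicate 1, at 35.0 CPM, lay within the TD range. Its changes of 0.91 and 0.79 did not pass (edgeR adjusted p = 0.134 and 0.182). The isomerase gene Gpi1, which makes fructose 6-phosphate, had changes of 0.13 and 0.07 and varied little between libraries (264 to 323 CPM in TD).

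Phosphofructokinase held the largest change among the 33 genes in each comparison with TD. Pfkm (ENSMUSG00000033065, chr15:98092589-98132451), the muscle-type subunit, was at 289.7, 230.3, 396, 308 and 191 CPM in TD, 110.4, 96.4 and 139.7 CPM in No Strain and 83.6, 93.0, 105 and 82.2 CPM in Strain. The groups with a patch lay far below TD. The means were 283 ± 78.5 CPM (SD, n = 5), 115 ± 22.1 CPM (SD, n = 3) and 90.9 ± 10.4 CPM (SD, n = 4). Pfkm fell by 1.29 on the log2 scale in No Strain (standard error 0.217, edgeR adjusted p = 0.00446) and by 1.64 in Strain (standard error 0.199, edgeR adjusted p = 0.00251). Both calls held in each of the 12 fits that left out 1 library.

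Skeletal muscle markers, like Pfkm, tended to be lower in the patch groups than in TD. Of 17 muscle markers tested, 3 were lower in No Strain and 13 in Strain, and none was higher. Across TD the summed muscle level was 13316, 12016, 19171, 14455 and 7757 CPM in replicates 1 to 5, and the order of the libraries was the same as for Pfkm. It was 7669, 5448 and 11615 CPM in the No Strain replicates and 3675, 4497, 7020.3 and 4704 CPM in the Strain replicates. The order was also the same within No Strain. Within Strain it differed, as replicate 4 had the lowest Pfkm and replicate 1 the lowest sum. No Strain replicate 3 lay above TD replicate 5 in the sum but below it in Pfkm, at 139.7 against 191 CPM. With the muscle list as a covariate the change was -0.81 in No Strain (edgeR adjusted p = 0.0133) and -0.70 in Strain, where it no longer passed (edgeR adjusted p = 0.319). In that fit 1 of all 18618 genes passed for Strain, so the loss was not particular to Pfkm. The part of muscle tissue in the Pfkm values was not tested otherwise.

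**Figure D3:**
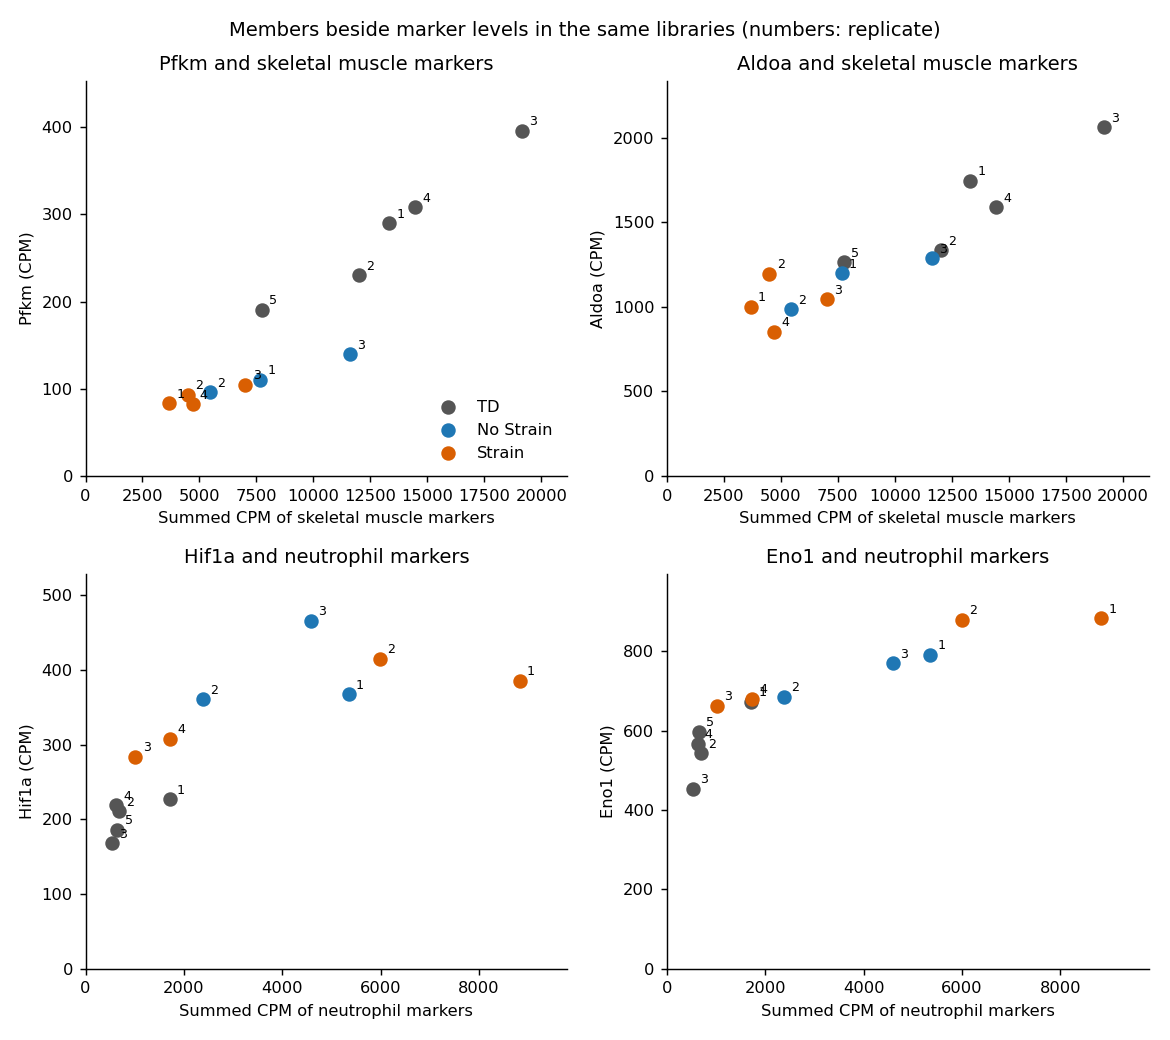
Each point is 1 library, numbered by replicate. The x axis is the summed CPM of skeletal muscle markers (upper panels) or neutrophil markers (lower panels), and the y axis is the CPM of Pfkm, Aldoa, Hif1a or Eno1; the TD libraries hold the highest Pfkm values, No Strain replicate 3 overlaps with TD in Aldoa, and TD libraries other than replicate 1 hold the lowest sums of the 11 neutrophil markers, which include S100a8 and S100a9.

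Neither of the other phosphofructokinase subunits passed. Pfkl, the liver type, had changes of 0.37 (edgeR adjusted p = 0.0887) and 0.42 (edgeR adjusted p = 0.0529), and Pfkp, the platelet type, had 0.06 and 0.14. The bifunctional enzymes PFKFB3 and PFKFB4 make fructose 2,6-bisphosphate, the strongest activator of phosphofructokinase. Their genes did not pass, with changes of -0.05 and -0.14 for Pfkfb3 (95% intervals -0.39 to 0.29 and -0.45 to 0.17) and 0.23 and 0.12 for Pfkfb4.

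In lower glycolysis 2 of 8 genes rose under No Strain, and under Strain 2 rose and 1 fell. Of all genes, 9.35% rose under No Strain, and 6.2% rose and 6.41% fell under Strain. A set of 8 genes is small for such a comparison. Pkm (ENSMUSG00000032294, chr9:59656368-59679375) encodes the M1 and M2 pyruvate kinases, which the gene counts do not separate. It was at 1146, 1013, 1047, 1114 and 1083 CPM in TD, 1484, 1393 and 1639 CPM in No Strain and 1427, 1586, 1239 and 1336 CPM in Strain. All patch libraries lay above all TD libraries. The rise was 0.48 in No Strain (standard error 0.0962, edgeR adjusted p = 0.0085) and 0.37 in Strain (standard error 0.0891, edgeR adjusted p = 0.0235). The Strain call was lost without TD replicate 2 (edgeR adjusted p = 0.0585), TD replicate 3 (0.0529), Strain replicate 1 (0.051) or Strain replicate 2 (0.0786), and with the title letter as a covariate (0.102). Exons of Gm49759 overlap with Pkm over 767 bases on the same strand, so reads there cannot be assigned to one of them.

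Pgam1 (ENSMUSG00000011752, chr19:41911923-41918660) encodes phosphoglycerate mutase, which shifts a phosphate within the 3-carbon acid. Its level was 112, 96.4, 84.9, 88.8 and 107 CPM in TD, 129.7, 117 and 134 CPM in No Strain and 125, 132, 113 and 106 CPM in Strain. No Strain lay wholly above TD, and Strain overlapped with it. The No Strain change was 0.38 (standard error 0.103, edgeR adjusted p = 0.0286) and the Strain change 0.28 (standard error 0.0950, edgeR adjusted p = 0.0714). The former call was lost without TD replicate 2, 3 or 4 and without No Strain replicate 1 or 3 (edgeR adjusted p from 0.0582 to 0.109), with library totals alone (0.0504) and with the title letter as a covariate (0.0735).

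Eno1 (ENSMUSG00000063524, chr4:150236721-150248879) encodes alpha-enolase, which makes phosphoenolpyruvate. It was at 673, 543, 453, 567 and 597 CPM in TD, 791, 685 and 770.1 CPM in No Strain and 883, 879, 662 and 679.7 CPM in Strain. Strain replicates 1 and 2 lay above all other libraries, and Strain replicate 3 lay just below TD replicate 1. The change was 0.45 in Strain (standard error 0.127, edgeR adjusted p = 0.0385) and 0.40 in No Strain (standard error 0.137, edgeR adjusted p = 0.0633). The Strain call was lost in 8 of the 12 fits that left out 1 library, those without TD replicates 2 to 5, Strain replicates 1 and 2, or No Strain replicates 1 and 2 (edgeR adjusted p from 0.0514 to 0.13), with the title letter as a covariate (0.151) and with only Strain and TD fitted (0.057). The sums of all 11 neutrophil markers were 8826, 5992, 1015 and 1727 CPM in Strain replicates 1 to 4, highest in replicates 1 and 2. Without S100a8 and S100a9 they were 429.7, 531, 395 and 624 CPM, highest in replicate 4. The part of neither sum in the Eno1 values was tested.

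Aldoa (ENSMUSG00000030695, chr7:126795234-126800751), encoding aldolase A of muscle and most other tissues, went the other way. Its level was 1746, 1334, 2061, 1590.1 and 1262 CPM in TD, 1198, 984 and 1286 CPM in No Strain and 1002, 1196, 1046 and 853 CPM in Strain. Every Strain library lay below every TD library, and No Strain replicate 3 overlapped with TD. Aldoa fell by 0.64 in Strain (standard error 0.157, edgeR adjusted p = 0.0248), and the No Strain change of -0.47 did not pass (standard error 0.172, edgeR adjusted p = 0.0796). The Strain call was lost without Strain replicate 1 (edgeR adjusted p = 0.0541) or Strain replicate 4 (0.0559), and with the title letter as a covariate (0.0688). With the muscle markers as a covariate the Strain change was -0.05 (edgeR adjusted p = 0.959).

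The remaining enzymes of lower glycolysis did not pass. Pgk1, which makes the first ATP of the pathway, had changes of 0.40 (95% interval 0.06 to 0.73) and 0.36 (95% interval 0.05 to 0.67). Tpi1, the triose phosphate isomerase, had 0.12 and 0.11, and the scarce brain-type aldolase Aldoc had 0.19 and 0.18. Gapdh, often used to normalise expression, had 0.20 (95% interval -0.07 to 0.47) and 0.06 (95% interval -0.19 to 0.31). Gapdh is uncertain because 93 near-identical copies in the annotation held 12% of the reads of the family, at 11.2% to 12.6% per library. For every other member such copies held at most 1.12% of reads, and adding them to their genes changed no member's call.

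At the fate of pyruvate no gene passed, where 17.8% of all genes passed under No Strain and 12.6% under Strain. Ldha, the lactate dehydrogenase subunit that favours lactate and a standard hypoxia target, had log2 changes of 0.08 (95% interval -0.26 to 0.41) and 0.10 (95% interval -0.21 to 0.40). Ldhb, the heart-type subunit, had -0.48 (95% interval -1.04 to 0.08) and -0.35 (95% interval -0.85 to 0.16). Pdk1, the kinase that shuts pyruvate dehydrogenase, had 0.00 and 0.14. The Ldha intervals exclude a doubling or halving of the transcript in either patch group.

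Levels of different genes were compared per kilobase of the principal transcript. On that scale Aldoa stood first of the 33 with a mean of 858 CPM per kilobase over the 12 libraries. It was followed by Gapdh (703), Pkm (531), Ldha (412) and Eno1 (336). Hif1a was at 63.5 CPM per kilobase, Slc2a1 at 48.3 and Slc2a3 at 3.51, and Car9 was last at 1.61.

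Isoenzyme shares were computed from the same length-scaled levels, as a description without a test. Pfkm made up 61.1% ± 7.52 (SD, n = 5) of phosphofructokinase transcripts in TD, 36.7% ± 5.11 (SD, n = 3) in No Strain and 30.6% ± 2.92 (SD, n = 4) in Strain. The patch libraries did not overlap with TD, with 33.6% to 42.6% and 28.04% to 33.6% against 50.9% to 71.5%. Hk3 made up 30.4% ± 8.38 (SD, n = 5) of hexokinase transcripts in TD, 41.9% ± 3.86 (SD, n = 3) in No Strain and 38.5% ± 12.7 (SD, n = 4) in Strain, where the libraries ran from 20.5% in replicate 1 to 50.1% in replicate 2. GLUT3 (Slc2a3) was the minor glucose transporter at 5.90% ± 0.718 (SD, n = 5) in TD, 9.27% ± 3.56 (SD, n = 3) in No Strain and 6.44% ± 4.04 (SD, n = 4) in Strain. Ldhb gave 7.66% ± 1.59 (SD, n = 5) of lactate dehydrogenase transcripts in TD, 5.58% ± 1.98 (SD, n = 3) in No Strain and 5.96% ± 2.05 (SD, n = 4) in Strain, with overlapping libraries. These shares depend on the transcript length used. The order of the groups in Pfkm was the same with each length tried. The length of a gene scaled every library alike, so trying other lengths is no test of that order.

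**Figure D4:**
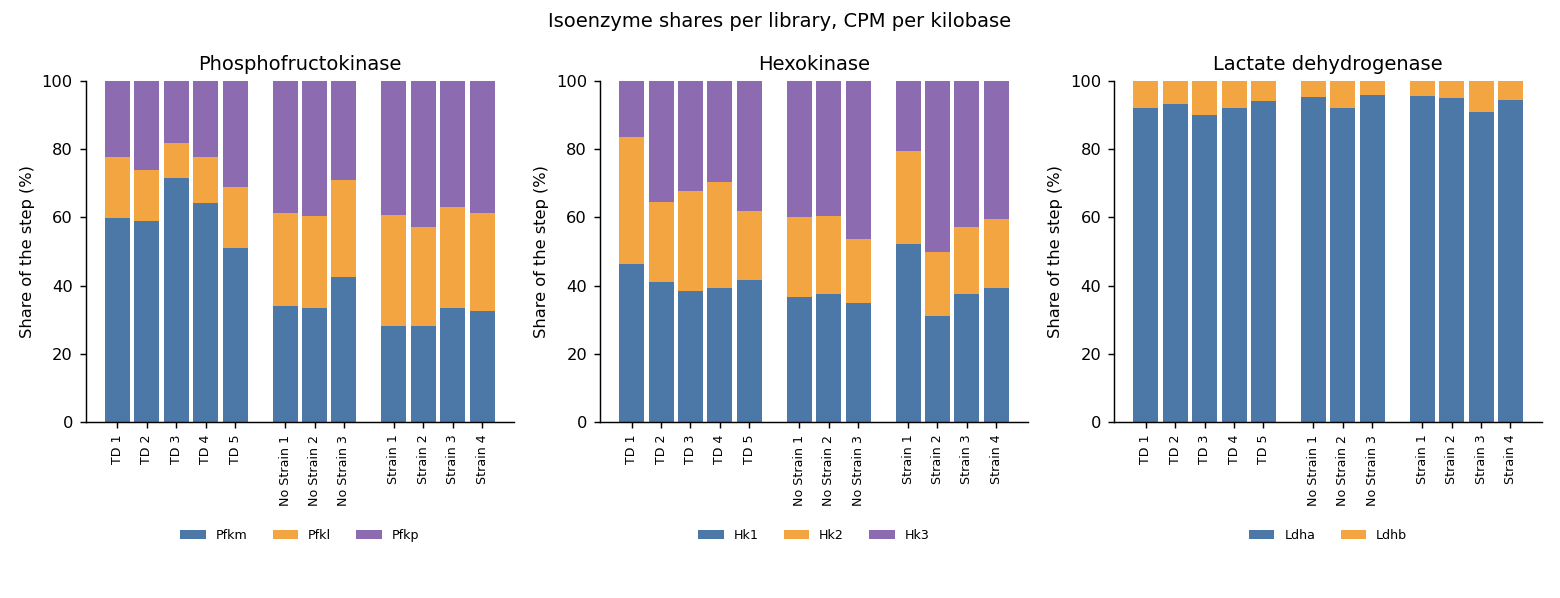
Stacked bars give the percent share of each isoenzyme (y axis) in every library (x axis, group and replicate), from CPM per kilobase of the principal transcript. Pfkm lies between 50.9% and 71.5% in TD and between 28.04% and 42.6% in the patch libraries.

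Whether the strain itself mattered was asked by comparing Strain with No Strain, since both groups wore a patch. None of the 33 genes passed in the edgeR quasi-likelihood test, with a smallest adjusted p of 0.872, and of all genes tested in that fit 0 passed (0%). With DESeq2 none of the 33 passed either, while 8 of all genes were higher and 21 lower (0.158%). At an unadjusted p under 0.05 there were 2 members, beside 5.61% of all genes. No member's libraries were separated between the groups, beside 5.62% of all genes. The 2 with the smallest p were Epas1, at -0.40 (95% interval -0.72 to -0.08, edgeR adjusted p = 0.872), and Slc2a3, at -0.64 (95% interval -1.22 to -0.05, edgeR adjusted p = 0.872). Over the 33 genes the median difference was -0.09, beside 0.01 over all genes, and 22 members lay below 0. The intervals were narrow for Hk1 (-0.17 to 0.16) and Pkm (-0.33 to 0.11) and wide for Egln3 (-0.98 to 1.12) and Adm (-1.14 to 0.67). The latter intervals include a doubling of Egln3 and a halving of Adm.

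A second list held 70 further genes of glucose use and the hypoxia pathway, of which 67 were tested. For No Strain against TD 9 were higher and 15 lower (35.8%, where 17.8% of all genes passed), and for Strain against TD 5 were higher and 14 lower (28.4%, where 12.6% passed). The former count was 14 without No Strain replicate 1 (8.74% of all genes) and 13 without No Strain replicate 3 (7.88% of all genes). None passed between Strain and No Strain, with 1 at an unadjusted p under 0.05 in edgeR and none with DESeq2. Of the 20 further glycolysis and glycogen genes tested, 10 fell and 3 rose under No Strain, and 11 fell and 1 rose under Strain. Over all genes, 8.4% fell and 9.35% rose under No Strain, and 6.41% fell and 6.2% rose under Strain. Among the 20 that fell were genes known from muscle. Pgam2, the muscle mutase, was at 95.4 ± 24.1 CPM (SD, n = 5) in TD, 34.5 ± 10.1 CPM (SD, n = 3) in No Strain and 26.5 ± 3.94 CPM (SD, n = 4) in Strain, with log2 changes of -1.47 and -1.84 (edgeR adjusted p = 0.00425 and 0.00251). Pygm, muscle glycogen phosphorylase, had -1.53 and -2.003 (edgeR adjusted p = 0.00681 and 0.00386). Fbp2, the muscle fructose bisphosphatase, had -2.63 and -2.72 (edgeR adjusted p = 0.00505 and 0.00539). Eno3, the muscle enolase, had -1.44 and -1.86 (edgeR adjusted p = 0.00689 and 0.00386). Tigar, a fructose bisphosphatase that slows glycolysis, had -0.65 and -0.69 (edgeR adjusted p = 0.00531 and 0.00539).

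The pentose phosphate branch makes NADPH and ribose. Its genes were called only upward, 2 of 7 in No Strain and 1 of 7 in Strain. Of all genes, 17.8% passed in No Strain (9.35% higher) and 12.6% in Strain (6.2% higher), and 7 genes are few for such a comparison. Taldo1, encoding transaldolase, was at 157, 163, 196, 176 and 166 CPM in the TD libraries and at 253, 237 and 260.0 CPM under No Strain, which did not overlap, a change of 0.54 (edgeR adjusted p = 0.00399). Pgd, encoding 6-phosphogluconate dehydrogenase, had 0.34 and 0.23 (edgeR adjusted p = 0.00985 and 0.0412). The latter call held in only 3 of the 12 fits that left out 1 library. Slc2a6, a glucose transporter relative of leukocytes, was at 5.27, 5.59, 6.94, 6.54 and 5.22 CPM in TD, 12.6, 16.0 and 17.9 CPM in No Strain and 8.20, 29.1, 13.1 and 13.9 CPM in Strain, and rose in both patch groups (edgeR adjusted p = 0.014 and 0.0138). The former call was lost without No Strain replicate 3 (edgeR adjusted p = 0.0558), and the latter with the title letter as a covariate (0.062).

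Fbp1, the liver-type fructose bisphosphatase, rose in No Strain, with 5.31, 3.99 and 4.65 CPM against 1.40, 1.60, 0.199, 0.363 and 1.58 CPM in TD, a change of 2.18 (edgeR adjusted p = 0.0122). Pdk3, another pyruvate dehydrogenase kinase, rose by 0.29 in No Strain and 0.39 in Strain (edgeR adjusted p = 0.0457 and 0.0161). Ero1l, an oxidase of protein folding and a hypoxia target, rose by 0.70 and 0.62 (edgeR adjusted p = 0.0154 and 0.0245). The Strain call of Ero1l held in 7 of the 12 fits that left out 1 library. Of the 28 further hypoxia pathway genes tested, 3 rose and 2 fell under No Strain, and 2 rose and 1 fell under Strain. These counts were near the shares of all genes that passed, 17.8% for No Strain and 12.6% for Strain. With the muscle covariate 8 of the 67 genes passed in No Strain (1 higher, 7 lower; 5.72% of all genes passed in that fit), among them Pgam2 at -1.02, Pygm at -1.01, Fbp2 at -2.28 and Tigar at -0.53 (edgeR adjusted p from 0.0209 to 0.0469). None of the 67 passed in Strain under that covariate.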

How the data were processed

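Libraries from total RNA of 12 wounds were sequenced, and the authors deposited 1 file of raw gene counts per library, per the file headers. The submitters' processing notes name bcl2fastq 2.17, FastQC, cutadapt, STAR, featureCounts, DESeq2 and the build GRCm38; the annotation release, strand setting and handling of reads with several matches are not given in the sources used here. Antisense and overlapping reads therefore cannot be told apart. Symbols, coordinates and lengths came from GENCODE M21 (GRCm38), which matched 54165 of 54232 gene IDs. Where Aldoa had several IDs, the one with most counts was used.

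Groups came from the group label. Genes passed filterByExpr of edgeR 4.0.16 (minimum count 10, minimum total 15; 18618 genes). A quasi-likelihood fit with robust spread estimates over all 12 libraries, TMM scaling and R 4.3.3 gave log2 fold changes, with Benjamini-Hochberg adjustment over all genes tested and a threshold of 0.05. Standard errors were derived from the F statistic. The script was tested on simulated counts. The members, lists and tests were chosen with earlier results of these data known. Values in every library are given for members past the threshold and, where none passed, for the 2 with the smallest p; of the second list, the text names for each comparison with TD the 4 most significant genes in either direction. Near-identical copies were transcripts of other genes matching at 95% or more over at least 200 bases. Alternatives were other scalings, DESeq2 1.42.0, other filters, fits on 2 groups, the title letter (L or R, meaning not given in the sources used here) or the mean log2 CPM of the muscle markers as a covariate, and leaving out each library; adding copies and all exon bases as length were chosen after seeing the data. Replicate pairs differed beyond sampling noise in all 19 cases (chi-square per degree of freedom from 9.53 to 75.0). Depth limits precision mainly for Ankrd37 and Car9.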

Additional observations from a re-analysis of the deposited data

Results flagged for a closer look

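In TD (n = 5) and Strain (n = 4), the 33 genes, the marker sums and the isoenzyme shares were searched for single libraries separated from their own group by a wide gap. Of 96 group values, 7 stood apart, where chance flags about 1 in 20 (4.8 here). In TD replicate 1, Slc16a1 was at 119.7 CPM against 83.6 in the next library, Slc16a3 at 120.5 against 75.3 and Adm at 16.2 against 9.69. The neutrophil marker sum was also highest there, at 1713 CPM against 687. Without S100a8 and S100a9, TD replicate 4 stood apart instead, at 250.02 CPM against 211. The endothelial sum of TD replicate 5 was 641 CPM against 538. In Strain replicate 4, Pfkfb3 was at 89.7 CPM, below the next library at 109.7.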

How the results depend on the processing

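No paired analysis was possible because the labels give no replicate numbers shared between groups. Counts of the 33 genes for No Strain against TD were 4 with the muscle list as a covariate (5.72% of all genes) and ran from 5 to 11 in the fits that left out 1 library. For Strain against TD they were 10 with DESeq2 (16.1% of all genes), 3 with the title letter as a covariate (4.29% of all genes), 0 with the muscle covariate, and 3 to 8 when 1 library was left out. For the second list, No Strain against TD gave 8 with the muscle covariate and 13 to 26 when 1 library was left out. Strain against TD gave 12 with the title letter (4.29% of all genes) and 0 with the muscle covariate. Under the muscle covariate 1 of all genes passed for Strain against TD. Why the counts moved was not tested, and the cause was not tested for the shares either. No named gene changed direction under any alternative.

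Without length scaling the Pfkm share was 53.3% in TD, 29.7% in No Strain and 24.3% in Strain, and with all exon bases as length 76.7%, 54.3% and 47.6%. In No Strain the Hk3 share was 34.2% and 50.1% in the same order. The Slc2a3 share in TD was 7.07% and 3.55%, and in No Strain 5.69% with all exon bases. Ldhb in TD gave 5.78% and 11.4%, and with all exon bases 8.4% in No Strain and 8.96% in Strain. Under the remaining alternatives, counts moved by less than 1.5 times and shares by less than 1 SD.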

Other observations

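The 4 Strain libraries differed among themselves in several of the 33 genes, and their titles carry the numbers 7, 10, 14 and 15. Egln3 was at 268, 148, 94.9 and 51.3 CPM in replicates 1 to 4. Pgk1 was at 426, 438, 299 and 287 CPM and Ldha at 861, 899, 655 and 584 CPM. Slc2a1 was at 258, 193, 157 and 132 CPM. In those libraries the 8 markers of wound-activated keratinocytes summed to 11388, 7111, 3747 and 3678 CPM and the 11 neutrophil markers to 8826, 5992, 1015 and 1727 CPM. Without S100a8 and S100a9 the latter sums were 429.7, 531, 395 and 624 CPM, in another order. Adm was at 10.6, 14.0, 30.0 and 14.0 CPM. Only 4 libraries are available, so no relation between these values was tested.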
